A study of Mus musculus with 24 samples.

Results

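The tumours of the group named IGEL were compared with the tumours of the PBS control group across all expressed genes. The comparison takes the 12 samples whose titles carry IGEL (6 samples) or PBS (6 samples), of 24 samples in the series. The other samples belong to the groups GEM and LIGEL, with 6 each, and every sample was collected on day 24. Each sample was profiled by bulk RNA sequencing, and gene values are read counts, given here as counts-per-million values (CPM) of the scaled library total.

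PBS is buffered saline. The labels expand no group name and state no strain, age, tumour model, agent or dose for the mice, so no drug is assigned to IGEL. The series title speaks of losartan, an angiotensin receptor blocker, given before a nanocarrier for chemotherapy and immunotherapy. The comparison therefore addresses how tumour cells, immune cells and stroma of the IGEL group differed from control. Whether the 6 replicates in each group are separate animals is not stated in the labels, so p-values reflect how much these samples vary, and that variation may be technical.

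The labels name the tissue as pancreatic tumour, whereas the sample titles begin with the word muscle. The 16 listed skeletal muscle genes, of which 6 were tested, took 0.000687 to 0.00245% of the counts in 11 of the 12 libraries. IGEL replicate 4 held 0.0361% (Wilson 95% interval 0.0354 to 0.0367%). Genes of pancreatic acinar cells were detected in every library.

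Dividing cells segregate their chromosomes on a spindle of microtubules. Kinesins are the motors that build and move along it, centromere proteins form the site where chromosomes attach, and checkpoint kinases delay division until attachment is complete. Most of these genes are transcribed late in the cell cycle through a cell cycle homology region (CHR element) and CCAAT boxes in their promoters, the sites of the MuvB complexes and of NF-Y. Cytotoxic T cells recognise peptides on MHC class I, kill with granzymes and perforin, and are restrained by checkpoint receptors such as those encoded by Ctla4, Pdcd1 and Tigit. Pancreatic tumours are known for a dense collagen stroma and few T cells.

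Library totals averaged 33.6 ± 3.25 M counts in PBS and 35.4 ± 2.25 M counts in IGEL (mean ± SD, n = 6 each). The 26 tested acinar genes, which encode digestive enzymes and their regulators, took 0.344 to 5.83% of counts in 5 PBS libraries and 0.00557 to 9.88% in IGEL. PBS replicate 5 held 40.96% (Wilson 95% interval 40.94 to 40.98%, counting error only) and, at 27.1 M counts, the smallest total. The counts of called genes and the cell division results are therefore given with and without PBS replicate 5, and other results where it moved them. In these bulk samples fewer cells of a type and less RNA per cell cannot be told apart.

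With all libraries, edgeR's quasi-likelihood test called no gene between IGEL and PBS at a Benjamini-Hochberg adjusted p under 0.05 (0 of 19253 genes, 0% higher and 0% lower). At an unadjusted p under 0.05, 1115 genes (5.79%) were higher and 1781 (9.25%) lower. Limma voom with sample quality weights called 78 higher (0.405%) and 306 lower (1.59%), with a weight of 0.0778 for PBS replicate 5. DESeq2 called 35 higher (0.182%) and 50 lower (0.26%). Without PBS replicate 5, edgeR called 18 genes lower (0.0922% of 19525) and 0 higher (0%), with 1020 higher (5.22%) and 1367 lower (7%) at an unadjusted p under 0.05. The 18 genes share the adjusted p of 0.04995, and none of them was called when the fit held only the other 11 IGEL and PBS libraries.

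All 18 of these genes were also called lower by voom with every library, by voom and by DESeq2 without PBS replicate 5, and by edgeR without PBS replicates 1 and 5. That last fit called 84 genes higher (0.424% of 19827) and 608 lower (3.07%). PBS replicate 1 was the next most different control, with a voom weight of 0.249. For comparison, the values of all 6 IGEL libraries lay above all 6 PBS libraries for 65 genes (0.338%) and below them for 22 genes (0.114%). Against the 5 other PBS libraries these counts were 115 (0.597%) and 154 (0.8%).

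Gene lists were used to describe where the IGEL tumours differed. Each list is described by the median log2 fold change of its tested members, beside -0.02 over all tested genes (-0.00 without PBS replicate 5). Of all tested genes, 47.1% were above 0 with every library and 49.3% without PBS replicate 5. Lists of T cells, cytotoxic effectors and checkpoint receptors had the highest medians among the lists with at least 10 tested members, 0.92, 0.765 and 0.75. The lowest medians among these lists were those of acinar, epithelial, islet, mitotic, WNT target and stem cell, endothelial and p53 target genes. Without PBS replicate 5 the acinar, epithelial and islet medians were 0.58, -0.87 and -0.42.

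**Figure D1:**
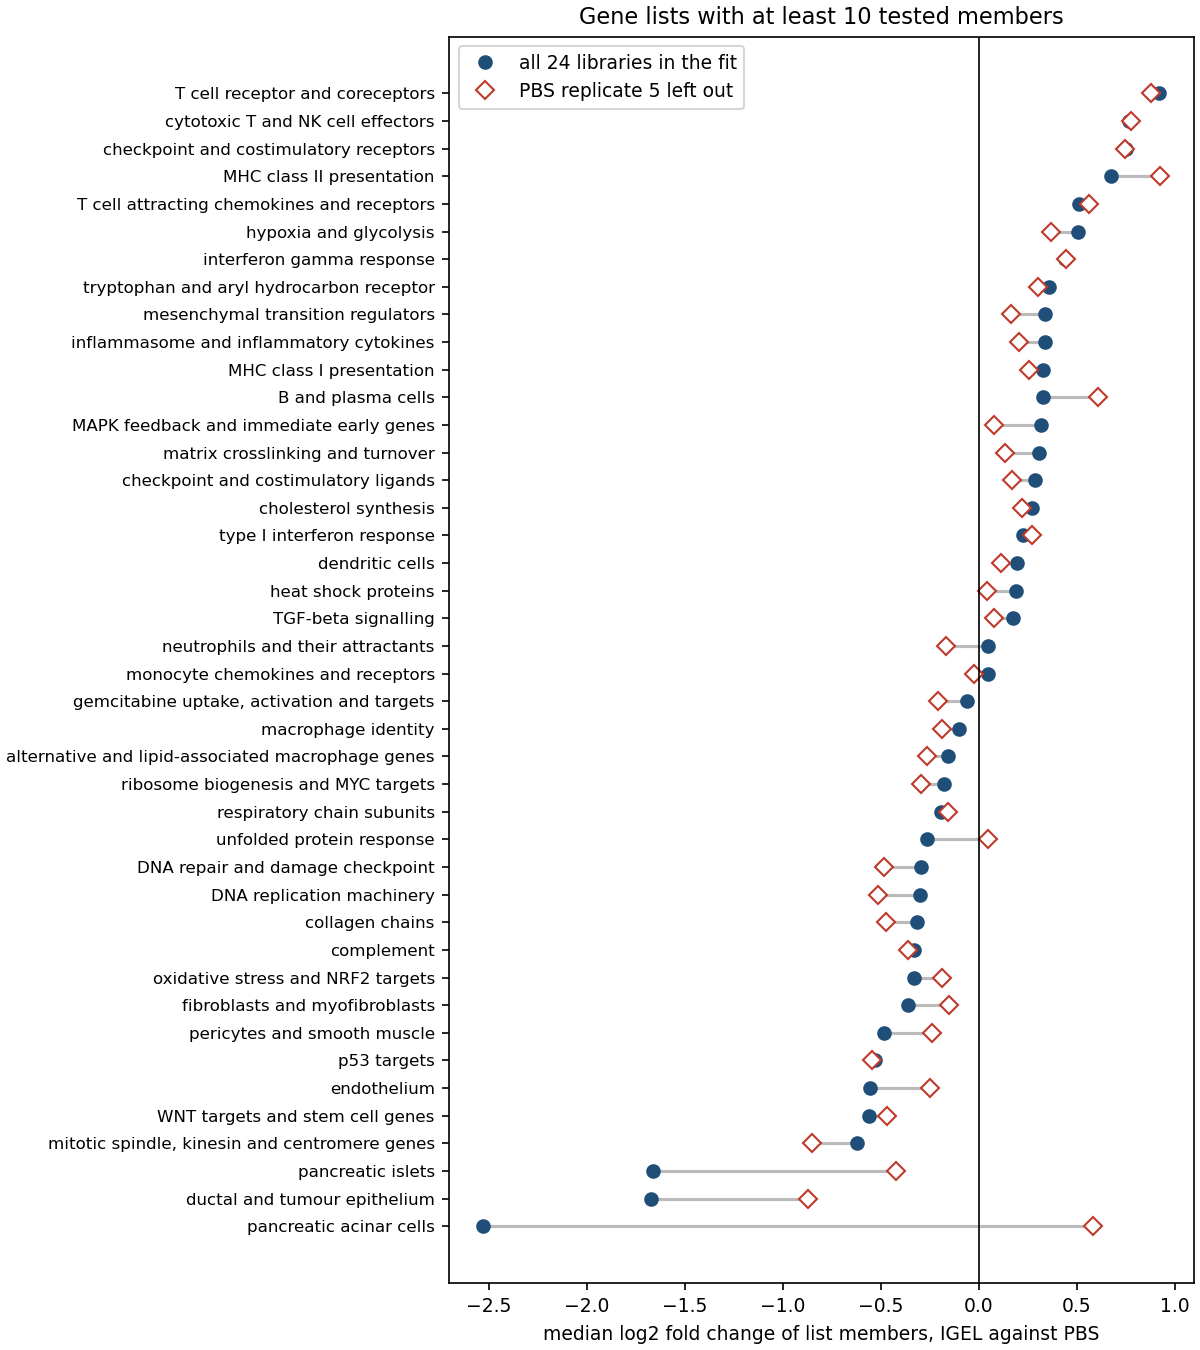
Median log2 fold change (x axis, IGEL against PBS) of each gene list with at least 10 tested members, with all 24 libraries in the fit (filled points) and with PBS replicate 5 left out (open diamonds). The mitotic list lies at -0.62 and -0.85 and the T cell list at 0.92 and 0.88, while the acinar list moves from -2.53 to 0.58 when that library is left out.

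Averaged over the list, genes of cell division had lower values in IGEL than in PBS replicates 1 to 4 and 6, and some passed edgeR's test once PBS replicate 5 was left out. All 42 tested genes of the mitotic spindle, kinesins and centromere had a log2 fold change below 0 (52.9% of all tested genes did), with a median of -0.62. Without PBS replicate 5 the median was -0.85, and all 42 were below 0 (50.7% of all tested genes were) with an unadjusted p under 0.05. Of all tested genes, 7% were lower at that p. In every IGEL library 25 of the 42 lay below all 5 other PBS libraries, against 0.8% of all tested genes. Of the 42, 5 passed edgeR's test without PBS replicate 5, Kif20a, Kif18b, Spag5, Cenpa and Bub1 (0.0922% of all tested genes were called lower). With every library voom called 33 of the 42 lower (1.59% of all tested genes). Without PBS replicates 1 and 5 edgeR called 36 of the 42 lower (3.07% of all tested genes). Without PBS replicate 2 the median was -0.41. PBS replicate 5 had the lowest mean log2 CPM of this list, 3.49, against 6.205 to 7.03 in the other PBS libraries and 5.23 to 6.12 in IGEL.

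Kif20a encodes a kinesin of the central spindle that is needed for cytokinesis. Its lowest, median and highest values were 43.9, 59.25 and 71.8 CPM in IGEL. In the 5 other PBS tumours they were 81.2, 133 and 174.5 CPM, and PBS replicate 5 had 10.5 CPM. Every IGEL tumour thus lay below every PBS tumour except replicate 5, which lay below them all. Kif20a fell by 1.09 ± 0.21 on the log2 scale without that library (log2 fold change ± SE, edgeR adjusted p = 0.04995), and by 0.84 ± 0.36 with it (adjusted p = 0.307).

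Kif18b is a kinesin that shortens the growing ends of microtubules. It ran from 27.75 through a median of 39.3 to 50.1 CPM in IGEL and from 62.8 through 81.9 to 105 CPM in the 5 PBS tumours. PBS replicate 5 had 8.78 CPM. Its groups did not overlap once that library was set aside, and it fell by 1.05 ± 0.21 on the log2 scale (edgeR adjusted p = 0.04995, and 0.307 with every library).

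Spag5, or astrin, holds spindle poles and kinetochore attachments together. IGEL tumours had 37.7 to 61.8 CPM with a median of 57.9, and the 5 PBS tumours 80.6 to 141.9 CPM with a median of 112. Knstrn, which encodes a partner of astrin at the kinetochore, had 47.9, 64.4 and 81.5 CPM as lowest, median and highest in IGEL, against 81.0, 119 and 159 CPM in the same 5 PBS tumours. Only IGEL replicate 4 overlapped PBS replicate 1 for Knstrn, and the groups did not overlap for Spag5, PBS replicate 5 aside. Both genes fell in the fit without PBS replicate 5 (edgeR adjusted p = 0.04995), by 1.03 ± 0.20 for Spag5 and by 0.94 ± 0.18 for Knstrn on the log2 scale.

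Cenpa, the histone H3 variant that marks centromeres, had 54.8 to 90.2 CPM in IGEL with a median of 76.3. The 5 PBS tumours had 94.1 to 158 CPM with a median of 130, and PBS replicate 5 had 23.6 CPM. Bub1, the checkpoint kinase of the spindle, had 49.3, 54.3 and 66.9 CPM in IGEL against 64.0, 99.65 and 134 CPM. Its groups touched, since PBS replicate 1 lay within the IGEL range. The log2 fold changes without PBS replicate 5 were -0.86 ± 0.16 for Cenpa and -0.85 ± 0.16 for Bub1 (edgeR adjusted p = 0.04995 for both).

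**Figure D2:**
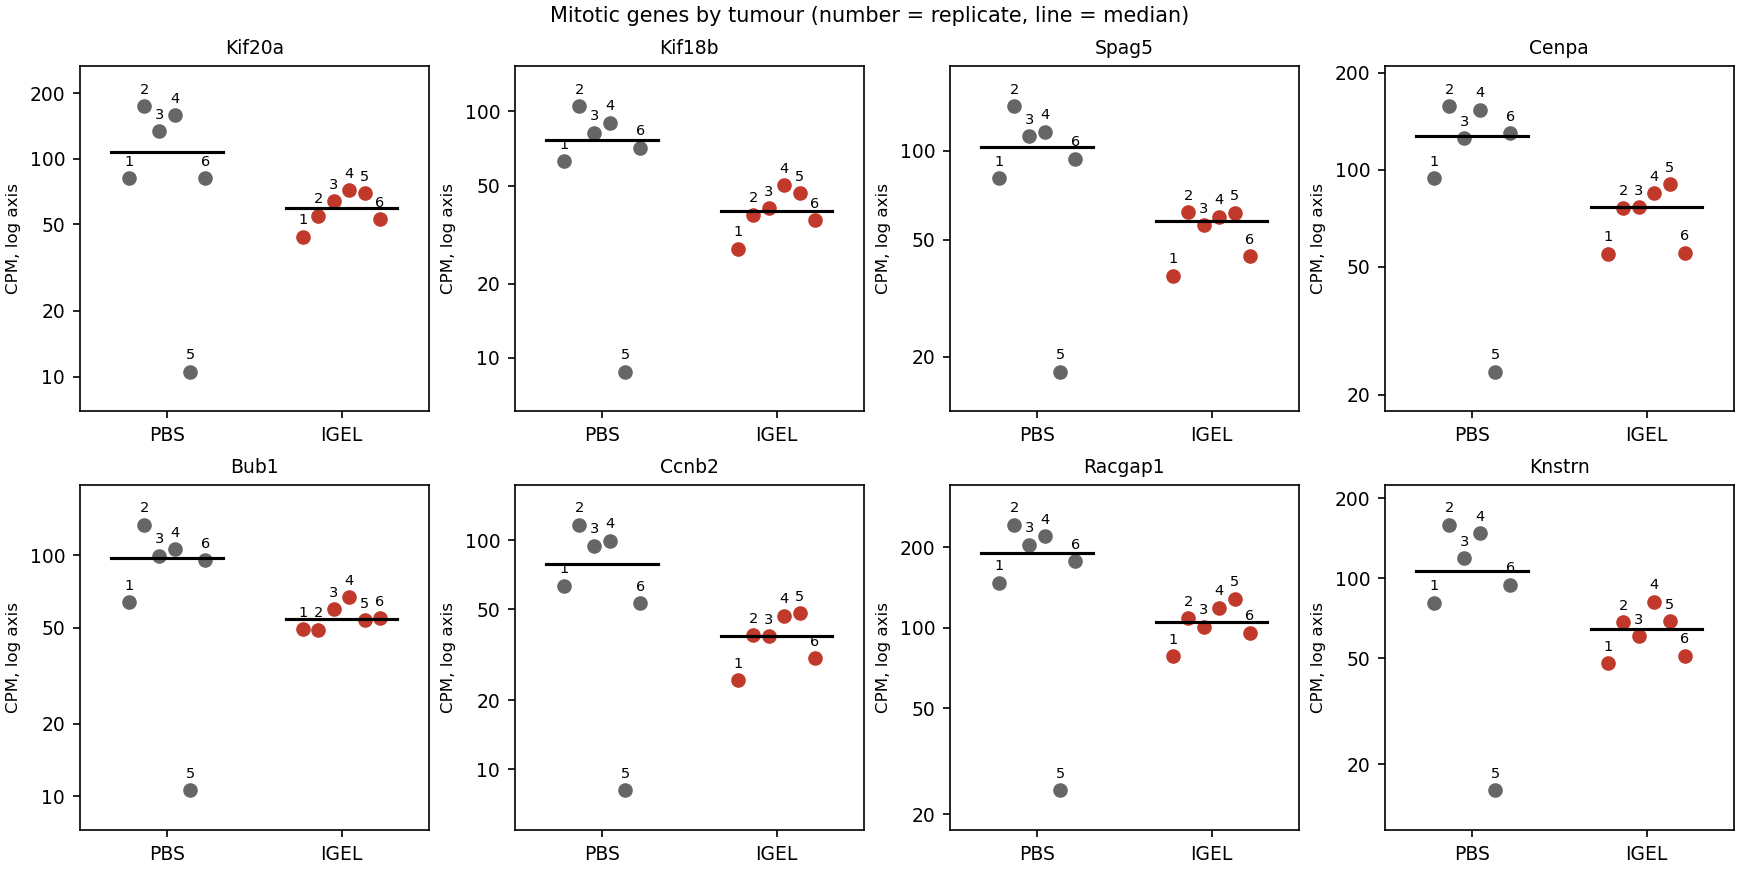
CPM on a log axis (y axis) of 8 cell division genes in each PBS (grey) and IGEL (red) tumour, numbered by replicate, with the group median as a line. The IGEL tumours lie below PBS replicates 1 to 4 and 6 with few exceptions (Kif20a at most 71.8 CPM in IGEL and at least 81.2 CPM in those 5), and PBS replicate 5 lies below both.

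The following genes of the list did not pass edgeR's test without PBS replicate 5. Ccnb2, which encodes the mitotic cyclin B2, had 24.4 to 47.9 CPM in IGEL and 53.02 to 116.5 CPM in the 5 PBS tumours, with no overlap. Its log2 fold change was -1.18 ± 0.24 and its adjusted p 0.0539 in edgeR without PBS replicate 5, and voom called it with every library (adjusted p = 0.0113). Mki67, the proliferation marker, had a median of 303.5 CPM in IGEL and 452 CPM in the 5 PBS tumours. Top2a, the topoisomerase that untangles sister chromosomes, had medians of 433 and 738 CPM. Neither Mki67 nor Top2a passed edgeR's test without PBS replicate 5 (adjusted p = 0.128 and 0.108).

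The promoters of 4 of these called genes are shown with the elements through which mitotic genes are known to be transcribed. The windows run from 250 bases before to 50 bases after the annotated start, from RefSeq on GRCm38.p6, and are written 5′ to 3′ on the strand of the gene. Capitals mark the CHR element (TTTGAA, or TTCAAA on the other strand) and CCAAT boxes (CCAAT or ATTGG). The windows are chr5:30666636-30666935 (plus strand) for Cenpa, chr2:127831810-127832109 (minus) for Bub1, chr11:78301341-78301640 (plus) for Spag5 and chr11:102925075-102925374 (minus) for Kif18b.
Cenpa: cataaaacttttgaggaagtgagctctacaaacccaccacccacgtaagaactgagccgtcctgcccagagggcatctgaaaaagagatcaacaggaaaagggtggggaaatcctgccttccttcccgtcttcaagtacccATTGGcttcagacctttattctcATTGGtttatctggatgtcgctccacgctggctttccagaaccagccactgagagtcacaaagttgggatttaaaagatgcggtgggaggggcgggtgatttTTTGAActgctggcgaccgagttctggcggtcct
Bub1: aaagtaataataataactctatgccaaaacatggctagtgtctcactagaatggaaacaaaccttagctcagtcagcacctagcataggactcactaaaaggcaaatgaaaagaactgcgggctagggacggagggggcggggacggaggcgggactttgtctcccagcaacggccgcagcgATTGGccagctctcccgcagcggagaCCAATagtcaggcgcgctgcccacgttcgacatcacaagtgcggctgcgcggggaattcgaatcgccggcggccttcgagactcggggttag
Spag5: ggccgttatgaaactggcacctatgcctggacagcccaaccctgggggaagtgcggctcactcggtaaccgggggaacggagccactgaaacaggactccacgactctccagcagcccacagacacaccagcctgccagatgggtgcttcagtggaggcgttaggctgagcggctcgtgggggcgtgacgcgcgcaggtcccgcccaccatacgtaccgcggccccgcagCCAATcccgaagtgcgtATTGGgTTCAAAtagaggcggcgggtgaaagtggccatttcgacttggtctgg
Kif18b: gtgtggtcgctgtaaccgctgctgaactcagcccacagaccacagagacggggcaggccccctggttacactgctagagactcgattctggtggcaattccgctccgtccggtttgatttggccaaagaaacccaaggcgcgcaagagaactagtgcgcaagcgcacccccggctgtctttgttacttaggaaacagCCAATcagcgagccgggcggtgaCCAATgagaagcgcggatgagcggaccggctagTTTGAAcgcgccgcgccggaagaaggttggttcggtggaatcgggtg

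Cenpa, Spag5 and Kif18b each hold 1 CHR element downstream of 2 CCAAT boxes, while Bub1 holds 2 CCAAT boxes and no TTTGAA in this window. Promoter windows were found for 35 of the 42 mitotic genes, 36 windows in all. TTTGAA on either strand was in 26 of them (72.2%), against 12.9% of the 16021 windows of tested genes. CCAAT on either strand was in 27 (75%), against 37.1%. Both were in 22 (61.1%), against 5.11%. These are matches of letters and do not show binding.

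Knstrn and the other genes that fell without PBS replicate 5 lay outside the mitotic list. Racgap1, part of the complex that positions the cleavage furrow, had 78.25 to 128.5 CPM in IGEL and 147 to 243 CPM in the 5 PBS tumours, without overlap (-0.92 ± 0.16 on the log2 scale). Hmmr, a hyaluronan receptor that also sits on spindle microtubules, had 40.2 to 68.0 CPM against 70.8 to 139 CPM, again without overlap. Cks2, a small subunit of cyclin-dependent kinases, had 17.4 to 22.8 CPM against 23.4 to 42.04 CPM. Prr11 had 36.55 to 50.95 CPM against 69.4 to 121 CPM. For these genes and those of the next paragraphs that fell, the edgeR adjusted p was 0.04995.

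Genes of the nuclear envelope and of transport through it were among them. Rangap1, which activates the Ran GTPase at nuclear pores and the spindle, had 105 to 150 CPM in IGEL and 148 to 265 CPM in the 5 PBS tumours, so the groups overlapped at their edges. Aaas, which encodes the nuclear pore protein aladin, had 31.8 to 40.5 CPM against 49.3 to 59.0 CPM, without overlap. Lmnb2, lamin B2 of the nuclear lamina, had 28.8 to 38.9 CPM against 40.4 to 51.6 CPM. The log2 fold changes were -0.71 ± 0.13, -0.57 ± 0.11 and -0.53 ± 0.10.

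Other genes of the 18 had smaller changes. Mdc1, a mediator of the response to DNA breaks, had 87.65 to 104 CPM in IGEL against 110 to 145 CPM (-0.42 ± 0.08 on the log2 scale). Rnaseh2c, a subunit of the enzyme that removes ribonucleotides from DNA, had 16.98 to 22.8 CPM against 23.7 to 28.4 CPM (-0.45 ± 0.09). Uevld and Jpt1 had log2 fold changes of -0.50 ± 0.09 and -0.53 ± 0.09. Of the 18 genes, only Rnaseh2c was also called by DESeq2 with every library (adjusted p = 0.0337).

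Genes of DNA replication and repair had lower values in IGEL with smaller differences. Of 32 replication genes, 29 had a log2 fold change below 0 with every library (52.9% of all tested genes did), with a median of -0.30. Without PBS replicate 5 all 32 did (50.7% of all tested genes), with a median of -0.51. Of these, 26 had an unadjusted p under 0.05, against 7% of all tested genes. None of the 32 passed edgeR's adjusted test in either fit. Voom called 10 lower with every library (1.59% of all tested genes). Orc1, the large subunit of the origin recognition complex, had 4.25 to 6.31 CPM in IGEL and 5.30 to 12.2 CPM in the 5 PBS tumours, which overlap (voom adjusted p = 0.0235). Mcm10, which loads DNA polymerase, had 23.02 to 35.04 CPM against 31.55 to 72.45 CPM (voom adjusted p = 0.0298). An E2F site (TTTCGCGC, TTTGGCGC or TTTCCCGC on either strand) was in 12 of 30 promoter windows of this list (40%), against 2.95% of all windows.

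All 22 DNA repair genes had a log2 fold change below 0 (52.9% of all tested genes did), with a median of -0.30, and -0.49 without PBS replicate 5. Voom called 9 of them lower with every library (1.59% of all tested genes). Chek2, a checkpoint kinase, had 6.51 to 11.2 CPM in IGEL and 11.5 to 17.6 CPM in the 5 PBS tumours, without overlap (voom adjusted p = 0.0237). Parpbp, an inhibitor of recombination, had 8.73 to 18.4 CPM against 18.1 to 30.3 CPM, with a small overlap (voom adjusted p = 0.0197).

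Gemcitabine, a nucleoside drug used against pancreatic cancer, enters cells through nucleoside transporters and blocks ribonucleotide reductase. Of 16 genes for its uptake, activation and targets, 8 were above 0 and 8 below (median -0.06), and none passed edgeR's test. Without PBS replicate 5, 5 were above 0 and 11 below (50.7% of all tested genes were below), with a median of -0.21. Without PBS replicates 1 and 5 edgeR called 4 lower (3.07% of all tested genes). Rrm1, the large subunit of ribonucleotide reductase, had 100.2 to 164 CPM in IGEL and 177.5 to 265 CPM in the 5 PBS tumours, without overlap (log2 fold change -0.63 ± 0.18, edgeR adjusted p = 0.133). Dnph1, which clears modified deoxynucleotides, was the list's only voom call, with medians of 9.70 CPM in IGEL and 16.4 CPM in those 5 (adjusted p = 0.0349). Voom called 1.59% of all tested genes lower.

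Genes that p53 activates were mostly lower in IGEL as well. Of 26 tested, 22 had a log2 fold change below 0 (median -0.53) and 15 had an unadjusted p under 0.05, against 9.25% of all genes, but none passed edgeR's adjusted test. PBS replicate 1 had the highest mean log2 CPM of this list, 5.82, against 4.63 to 5.07 in the other PBS libraries and 4.40 to 4.60 in IGEL. Without PBS replicate 1 the median was -0.38 and 9 genes had an unadjusted p under 0.05, and without PBS replicates 1 and 5 the median was -0.23.

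Aen, a nuclease that acts in apoptosis, had 28.6, 34.1 and 38.9 CPM as lowest, median and highest in IGEL and 40.8, 52.65 and 57.05 CPM in PBS. All IGEL tumours lay below all PBS tumours, replicate 5 included (log2 fold change -0.58 ± 0.14, edgeR adjusted p = 0.306, DESeq2 adjusted p = 0.0248). Bax, which permeabilises mitochondria in apoptosis, had 30.2 to 42.5 CPM in IGEL and 45.1 to 58.05 CPM in the 5 PBS tumours, with replicate 5 at 26.6 CPM. Its log2 fold change without that library was -0.55 ± 0.12 (edgeR adjusted p = 0.0641), and voom called it with every library (adjusted p = 0.0324).

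Other p53 targets differed in how the tumours were spread. Btg2, an inhibitor of proliferation, had 23.8 to 29.75 CPM in IGEL and 27.1 to 138 CPM in PBS. Its 2 highest tumours were PBS replicates 1 and 5, and the log2 fold change of -1.26 ± 0.34 (edgeR adjusted p = 0.306, DESeq2 0.0435) became -0.49 under voom and -0.47 without PBS replicates 1 and 5. Ckap2, a spindle protein that is also counted among p53 targets, had 12.1 to 27.35 CPM in IGEL and 29.6 to 66.3 CPM in the 5 PBS tumours, without overlap (edgeR adjusted p = 0.0641 without PBS replicate 5). Cdkn1a, the cell cycle inhibitor p21, ranged from 67.7 to 213 CPM in IGEL and from 35.9 to 245 CPM in PBS, and its adjusted p was 0.783.

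Growth and energy genes had smaller differences. All 19 respiratory chain subunits had a log2 fold change below 0, with a median of -0.19, against 52.9% of all tested genes. Of these, 9 had an unadjusted p under 0.05 (9.25% of all tested genes were lower at that p), and 4 did without PBS replicate 5. None passed edgeR's test, and with library totals in place of TMM factors 4 of the 19 were above 0. Cox5a, a subunit of cytochrome oxidase, had 17.3 to 20.9 CPM in IGEL and 19.85 to 27.9 CPM in PBS. Of 18 genes of ribosome biogenesis and MYC targets, 16 were below 0 (median -0.18), and voom called 4 lower (1.59% of all tested genes). Odc1, the entry enzyme of polyamine synthesis, had medians of 247 CPM in IGEL and 329.6 CPM in PBS (voom adjusted p = 0.0468). Rrp9, of the particle that processes ribosomal RNA, had medians of 24.0 and 30.7 CPM (voom adjusted p = 0.0319).

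Genes of T cells were higher in most IGEL tumours, without passing edgeR's test. All 20 genes of the T cell receptor complex and its coreceptors had a log2 fold change above 0 (47.1% of all tested genes did), with a median of 0.92 (0.88 without PBS replicate 5). Of the 20, 12 had an unadjusted p under 0.05 (5.79% of all tested genes were higher at that p). Without PBS replicate 5, 7 of the 20 did (5.22% of all tested genes). Voom called 2 of the 20 higher with every library (0.405% of all tested genes). Averaged over the list, log2 CPM was 3.44, 2.70, 2.815 and 3.08 in IGEL replicates 2 to 5, but 1.16 and 1.275 in IGEL replicates 1 and 6. In PBS it was 2.84 in replicate 1 and 0.84 to 1.61 in the other 5.

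IGEL replicates 2 to 5 therefore held more T cell transcripts than 5 of the 6 PBS tumours, and IGEL replicates 1 and 6 lay inside the control range. IGEL replicates 1 and 6 also had the smallest acinar shares, 0.00819 and 0.00557% of counts. Without IGEL replicate 2, the list's median was 0.66 and 3 genes had an unadjusted p under 0.05. Without PBS replicate 1, the median was 1.33 and 18 genes did. The part of acinar tissue in these differences was not tested, and with the acinar score as a covariate the median was 1.11.

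Lat, the adaptor that links the T cell receptor to its signals, had 2.935, 8.93 and 14.25 CPM as lowest, median and highest in IGEL and 2.16, 3.19 and 7.45 CPM in PBS. The groups overlapped through IGEL replicates 1 and 6 and PBS replicate 1. Voom and DESeq2 called it (log2 fold change 1.22 ± 0.33 in edgeR, voom adjusted p = 0.0237, DESeq2 adjusted p = 0.0489), while edgeR gave an adjusted p of 0.306. Cd5, a receptor that dampens T cell signals, had medians of 4.46 CPM in IGEL and 1.43 CPM in PBS (edgeR adjusted p = 0.306). Cd8a, of cytotoxic T cells, had medians of 28.1 and 10.9 CPM, with PBS replicate 1 at 36.35 CPM inside the upper IGEL range. Cd4, of helper T cells, had medians of 9.635 and 6.99 CPM, and its log2 fold change of 0.52 ± 0.45 was about as large as its error.

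Cytotoxic effectors had higher values as well. All 15 tested genes had a log2 fold change above 0 (47.1% of all tested genes did), with a median of 0.765 (0.77 without PBS replicate 5). None passed edgeR's or voom's test. Gzmb, a granule protease, had 14.02, 23.2 and 27.2 CPM as lowest, median and highest in IGEL and 2.11, 6.88 and 15.75 CPM in PBS. All IGEL tumours except replicate 4 lay above every PBS tumour (log2 fold change 1.43 ± 0.40, edgeR adjusted p = 0.306). Gzmk, another granule protease, had medians of 3.72 and 1.16 CPM, and Klrk1, the activating receptor of killer cells, 4.92 and 1.69 CPM. Perforin, encoded by Prf1, ranged from 2.54 to 41.35 CPM in IGEL and from 1.30 to 30.6 CPM in PBS.

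Of 14 checkpoint and costimulatory receptors, 13 had a log2 fold change above 0, with a median of 0.75. Ctla4, the receptor that competes for costimulation, had 1.26, 2.19 and 4.81 CPM as lowest, median and highest in IGEL and 0.295, 0.574 and 1.07 CPM in PBS. Tigit, an inhibitory receptor of T and natural killer cells, had 3.97, 5.84 and 7.20 CPM against 0.608, 3.47 and 3.96 CPM. For both genes all 6 IGEL tumours lay above all 6 PBS tumours, a pattern seen for 0.338% of all genes. The log2 fold changes were 2.13 ± 0.50 for Ctla4 and 0.93 ± 0.27 for Tigit, at an edgeR adjusted p of 0.306 for both. DESeq2 called both (adjusted p = 0.0230 and 0.0458), and voom called Tigit (0.0311) but not Ctla4 (0.163). Pdcd1, which encodes the checkpoint receptor targeted by many antibodies, had medians of 3.375 and 1.87 CPM in groups that overlapped.

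Among 14 checkpoint ligands, 9 were above 0 (median 0.29), and 3 were higher at an unadjusted p under 0.05 (5.79% of all tested genes were). The other 5 were below 0, with the lowest log2 fold change at -1.77. Of these, 2 were lower at that p (9.25% of all tested genes were). Cd274, the ligand of the Pdcd1 receptor, had 26.7, 33.5 and 46.8 CPM in IGEL and 14.65, 20.2 and 28.6 CPM in PBS. PBS replicate 6 alone reached the IGEL range (log2 fold change 0.73 ± 0.17, edgeR adjusted p = 0.306, voom 0.0427, DESeq2 0.0402). Pdcd1lg2, the second ligand of that receptor, had medians of 2.37 and 1.15 CPM. Of 7 genes of regulatory T cells, 4 were above 0 (median 0.28). Foxp3, their defining factor, had medians of 0.872 CPM in IGEL and 0.810 CPM in PBS, and Il2ra, the interleukin receptor chain they share with activated T cells, 3.19 and 2.005 CPM.

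**Figure D3:**
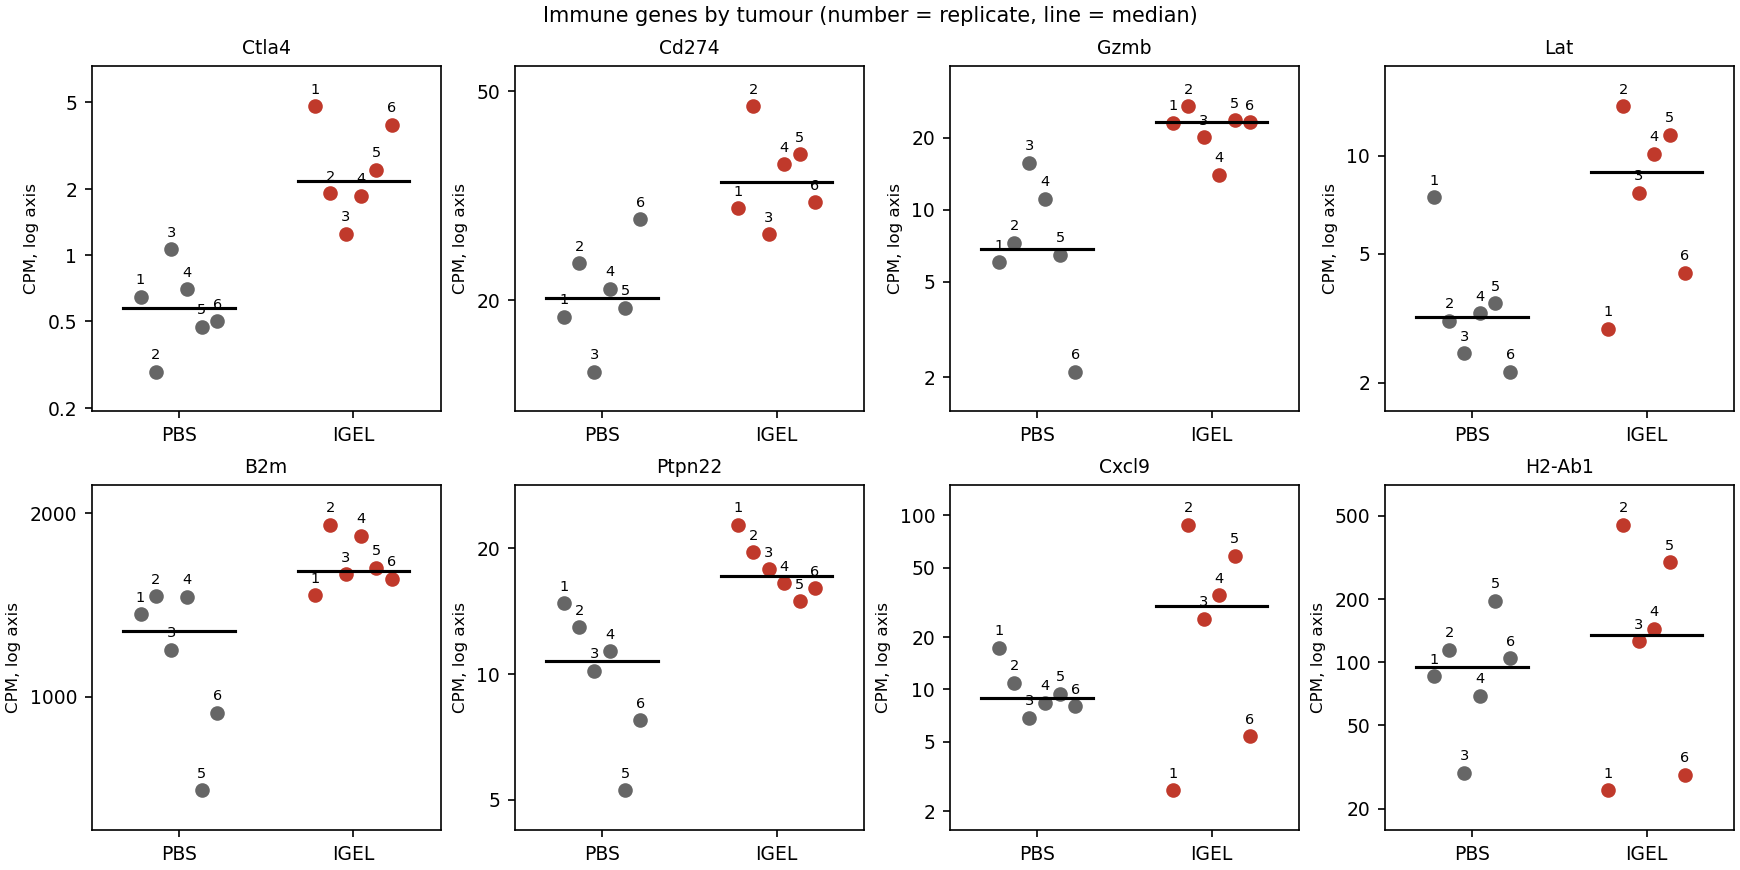
CPM on a log axis (y axis) of 8 immune genes in each PBS (grey) and IGEL (red) tumour, numbered by replicate, with the group median as a line. Ctla4 (at least 1.26 CPM in IGEL, at most 1.07 CPM in PBS), B2m and Ptpn22 do not overlap between groups, whereas IGEL replicates 1 and 6 lie below the PBS range for Cxcl9 and H2-Ab1.

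Genes of T cell attraction and of B cells varied between the IGEL tumours. Of 11 chemokine genes, 10 were above 0 (median 0.51, and 0.30 without IGEL replicate 2). Cxcl9, an interferon-induced attractant of T cells, had 25.5 to 88.3 CPM in IGEL replicates 2 to 5, but 2.63 and 5.38 CPM in IGEL replicates 1 and 6, against 6.86 to 17.35 CPM in PBS. Its IGEL tumours thus fell on both sides of the control range (log2 fold change 1.82 ± 0.63, edgeR adjusted p = 0.306).

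Of 18 B cell and plasma cell genes, 12 were above 0 (median 0.32, 0.61 without PBS replicate 5 and 0.20 without PBS replicate 6). Igha, the constant region of IgA, had a median of 70.05 CPM in IGEL and 25.9 CPM in PBS, and Igkc, the kappa light chain, 57.3 and 11.4 CPM. Ighg1, an IgG constant region, had 27.3 and 15.3 CPM in IGEL replicates 4 and 5 and at most 1.25 CPM in the other 10 tumours. None of these passed edgeR's test (adjusted p = 0.306 for each), and DESeq2 called Ighg1 (0.0279).

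Most genes of antigen presentation had higher values in IGEL. Of 16 MHC class I genes, 15 had a log2 fold change above 0 (median 0.33, and 0.25 with all 16 above 0 without PBS replicate 5). B2m, the light chain of every MHC class I molecule, had 1468, 1608 and 1914 CPM as lowest, median and highest in IGEL and 702.6, 1280 and 1463 CPM in PBS. The groups did not overlap, though the lowest IGEL and the highest PBS tumour were almost equal (log2 fold change 0.49 ± 0.17, edgeR adjusted p = 0.306). Nlrc5, the activator of MHC class I transcription, had 161.5 to 295 CPM in IGEL and 95.2 to 212 CPM in PBS (log2 fold change 0.48 ± 0.16, adjusted p = 0.306).

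B2m and Nlrc5 had the smallest edgeR p-values of the MHC class I list with every library, and no promoter window was found for Nlrc5. The B2m promoter is shown, and its window holds an interferon-stimulated response element. It lies at chr2:122147437-122147736 on the plus strand (RefSeq, GRCm38.p6), and capitals mark the response element.
B2m: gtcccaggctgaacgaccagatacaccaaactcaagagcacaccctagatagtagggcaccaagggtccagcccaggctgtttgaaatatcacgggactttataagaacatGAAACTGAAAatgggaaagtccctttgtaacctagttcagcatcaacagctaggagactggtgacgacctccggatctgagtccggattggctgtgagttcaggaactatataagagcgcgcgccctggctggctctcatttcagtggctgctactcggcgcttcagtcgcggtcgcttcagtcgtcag

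The interferon-stimulated response element, on either strand, was in 3 of 15 windows of the MHC class I list (20%), against 3.19% of all windows. MHC class II genes, expressed by antigen-presenting cells, had a median of 0.67 (10 of 11 above 0), 0.92 without PBS replicate 5 and 0.29 without IGEL replicate 2. H2-Ab1 had 24.4 to 453 CPM in IGEL and 29.6 to 196 CPM in PBS, with IGEL replicates 1 and 6 lowest in their group. H2-Eb1 had 17.5 to 393 CPM in IGEL and 25.4 to 194.5 CPM in PBS.

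Interferon gamma response genes were above 0 in 20 of 21 cases (median 0.44), and type I interferon genes in 19 of 26 (median 0.23). Without IGEL replicate 2 these medians were 0.17 and -0.17. Isg20, an interferon-induced nuclease, had 28.0, 40.8 and 46.3 CPM in IGEL and 24.6, 27.4 and 33.6 CPM in PBS (log2 fold change 0.45 ± 0.14, edgeR adjusted p = 0.306). A gamma-activated site (TTCNNNGAA) was in 7 of 16 promoter windows of the interferon gamma list (43.8%), against 6.99% of all windows.

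Macrophage and complement genes had medians near or below 0. Of 16 macrophage identity genes, 4 were above 0 (median -0.10), and of 12 complement genes none was (median -0.33). Without PBS replicate 1 these medians were 0.10 and 0.03. Trem2, a lipid receptor of tumour macrophages, had 6.76 to 21.2 CPM in IGEL and 11.3 to 47.5 CPM in PBS. Marco, a scavenger receptor, had 0.329, 0.794 and 1.17 CPM in IGEL and 1.01, 2.425 and 9.26 CPM in PBS. Only PBS replicate 5 lay within the IGEL range for Marco (log2 fold change -2.21 ± 0.78, edgeR adjusted p = 0.306). Ccl6, a chemokine of myeloid cells, had medians of 91.6 and 145 CPM.

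The stroma showed no change of one sign. Of 18 collagen chains, 6 were above 0 and the median was -0.31, but it was 0.13 without PBS replicate 1. Col1a1, the main fibrillar chain, had 1565 to 8681 CPM in IGEL and 1917 to 16950 CPM in PBS (log2 fold change -0.37 ± 0.44, edgeR adjusted p = 0.678, and 0.13 without PBS replicate 1). Col5a3, a chain that regulates fibril width, had medians of 437 CPM in IGEL and 268 CPM in PBS (1.0 ± 0.40, adjusted p = 0.306). The collagenase gene Mmp13 had medians of 74.95 and 28.4 CPM, and the myofibroblast marker Lrrc15 2.83 and 5.04 CPM, with adjusted p-values of 0.307 in both cases.

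Among 9 tested genes of the renin-angiotensin system, which losartan acts on, 8 were below 0 with every library (median -0.29). The median was -0.17 without PBS replicate 5, with 6 below 0, and 0.22 without PBS replicates 1 and 5. Agtr1a, the receptor that losartan blocks, had 0.2535 to 1.34 CPM in IGEL and 0.164 to 8.38 CPM in PBS, where replicate 5 was highest, and its log2 fold change of -1.67 was 0.10 under voom and 0.22 without PBS replicates 1 and 5. Lnpep, the aminopeptidase that binds angiotensin fragments, had 281 to 366 CPM in IGEL and 167 to 259 CPM in PBS, without overlap (0.45 ± 0.12, edgeR adjusted p = 0.306).

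Vessel and hypoxia genes had medians of opposite sign. Of 17 endothelial genes, 2 were above 0 (median -0.56, -0.25 without PBS replicate 5 and 0.13 without PBS replicates 1 and 5). The other 15 were below 0, down to a log2 fold change of -1.18. Of these 15, 2 had an unadjusted p under 0.05 (9.25% of all tested genes were lower at that p), and 0 did without PBS replicate 5. The 2 above 0 were Flt1 and Cldn5. Flt1, a receptor of vascular growth factor, had medians of 139 CPM in IGEL and 86.7 CPM in PBS. Cldn5, of endothelial junctions, had medians of 9.52 and 7.38 CPM. Of 22 hypoxia and glycolysis genes, 21 were above 0 (median 0.51, 0.20 without IGEL replicate 1 and 0.15 with the acinar score as a covariate), and their averaged log2 CPM was highest in IGEL replicates 1 and 6, 7.60 and 7.20, and in PBS replicate 6, 7.08. Pfkfb4, a regulator of glycolysis, had medians of 42.01 and 28.5 CPM, and P4ha1, which hydroxylates collagen, 265 and 191 CPM.

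Cholesterol synthesis genes were above 0 in 15 of 16 cases (median 0.27). Fdps, an enzyme of the isoprenoid step, had medians of 1.65 CPM in IGEL and 1.04 CPM in PBS, in groups that overlapped (edgeR adjusted p = 0.307).

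The genes with the smallest p among those with a log2 fold change of at least 0.6 in size did not belong to one pathway. Predicted genes, pseudogenes, V, D and J segments of antibodies and T cell receptors, and genes with a low mean CPM were left out of this ranking. Rapgef4, an exchange factor activated by cyclic AMP, had 8.07, 14.9 and 18.7 CPM in IGEL and 5.18, 8.43 and 9.51 CPM in PBS (0.90 ± 0.19). Ifi205, of an interferon-inducible family, had 18.9 to 28.9 CPM against 10.6 to 17.2 CPM, without overlap (0.72 ± 0.16). Ptpn22, a phosphatase that restrains T cell receptor signals, had 14.9 to 22.8 CPM against 5.27 to 14.8 CPM, also without overlap (0.79 ± 0.18). Each had an edgeR adjusted p of 0.306 and was called by both voom and DESeq2.

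Further genes on the higher side were Gabbr1, Dysf, Adgrg6, Itga2b, Perm1 and Catip. Gabbr1, a subunit of the receptor for the transmitter GABA, had medians of 158 CPM in IGEL and 96.9 CPM in PBS. Dysf, a membrane repair protein, had medians of 93.5 and 56.5 CPM, and Adgrg6, an adhesion receptor, 50.25 and 29.4 CPM. DESeq2 called these genes and edgeR did not (adjusted p = 0.306 for each). Itga2b, an integrin of platelets and megakaryocytes, had medians of 8.33 and 5.74 CPM. Catip had medians of 1.48 and 0.492 CPM. Perm1, a regulator of muscle mitochondria, had 15.55 to 21.05 CPM in IGEL and 6.83 to 14.8 CPM in PBS, without overlap.

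On the lower side, Slc25a10, the mitochondrial dicarboxylate carrier, had 24.9, 28.6 and 33.2 CPM in IGEL and 38.0, 44.7 and 63.4 CPM in PBS. The groups did not overlap (log2 fold change -0.70 ± 0.16, edgeR adjusted p = 0.306, voom 0.0237, DESeq2 0.0209). Dctpp1, which removes damaged nucleotides, had 13.1 to 19.75 CPM against 21.8 to 37.2 CPM, and Mtfp1, of mitochondrial fission, 0.873 to 2.62 CPM against 2.73 to 5.07 CPM. Neither overlapped between the groups. Ccdc85c had medians of 28.5 and 48.25 CPM, and Abhd6, a lipase, 4.07 and 5.77 CPM. Grhl2, a factor of epithelial cells, had 3.155 to 8.25 CPM against 6.40 to 21.75 CPM. Ahcy, Atl2 and Ifrd2 were each highest in PBS replicate 5.

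Transcripts of exocrine pancreas differed between tumours. The acinar list had a median of -2.53 with every library, with 0 of 26 genes above 0, and 0.58 without PBS replicate 5, with 19 above 0. Cpa1, a digestive carboxypeptidase, had 1.69 to 7228 CPM in IGEL and 177 to 36023 CPM in PBS, highest in replicate 5. Ductal and tumour epithelial genes had a median of -1.67 (3 of 19 above 0), -0.87 without PBS replicate 5 and -0.16 without PBS replicates 1 and 5. Epcam, an adhesion protein of epithelium, had medians of 13.9 CPM in IGEL and 22.9 CPM in PBS, and Ocln, of tight junctions, 5 and 7.69 CPM.

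The list medians were also taken with the acinar score as a covariate, and the part of acinar tissue in them was not tested. In that fit the mitotic median was -0.59, and -0.78 without PBS replicate 5. The T cell medians under the same settings were 1.11 and 0.98. The hypoxia and glycolysis median was 0.15 with the covariate and 0.51 without it. The median of fibroblast and myofibroblast genes was 0.11 with it and -0.36 without it. Skeletal muscle genes had a median of 1.89 that rested on IGEL replicate 4, where Ttn, the giant spring of the sarcomere, had 139 CPM against 3.16 to 9.72 CPM in the other 11 tumours.

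**Figure D4:**
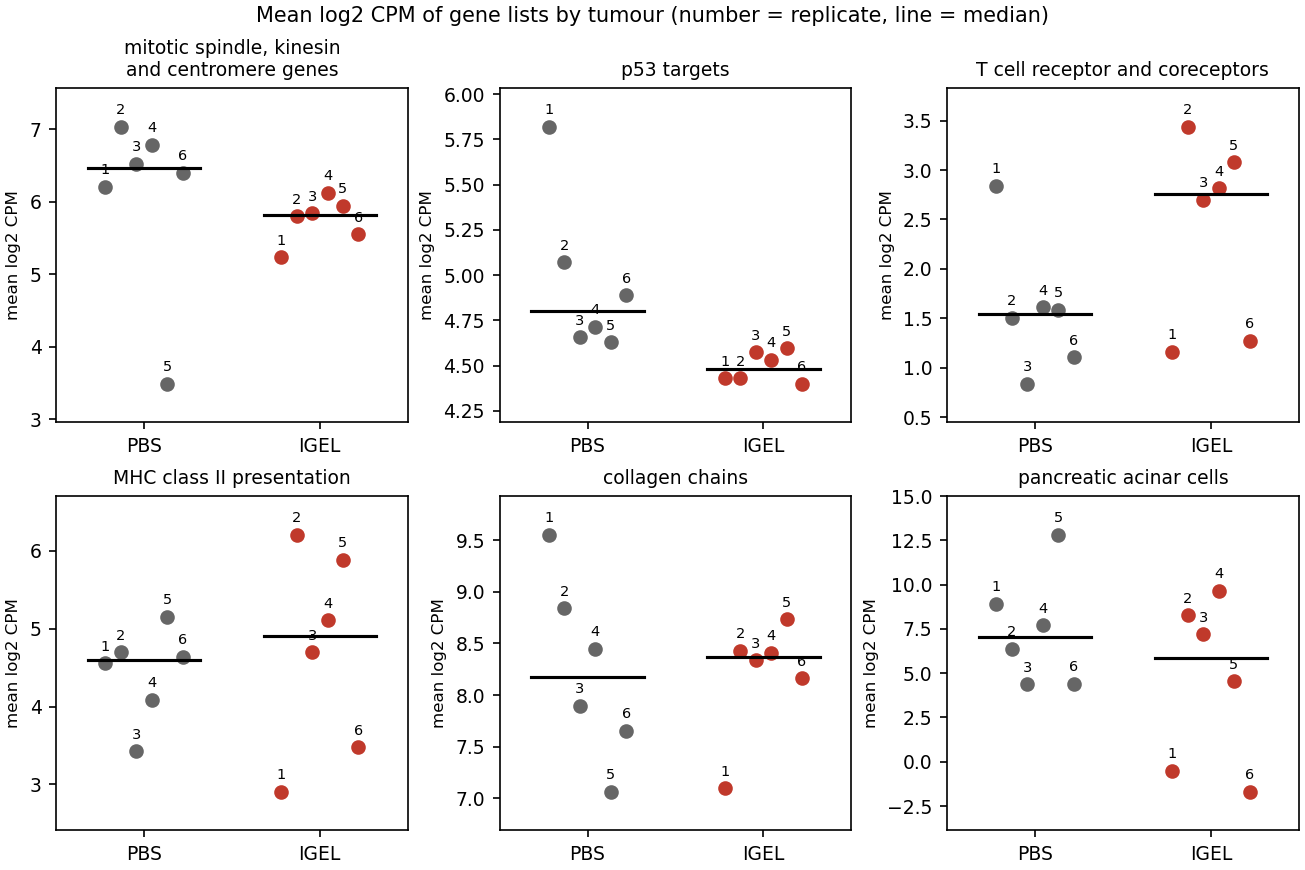
Mean log2 CPM (y axis) of 6 gene lists in each PBS (grey) and IGEL (red) tumour, numbered by replicate, with the group median as a line. The mitotic list lies between 5.23 and 6.12 in IGEL and between 6.205 and 7.03 in PBS apart from replicate 5, and IGEL replicates 1 and 6 are low in both the T cell and the acinar list.

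IGEL was also set against GEM and LIGEL, in contrasts that use the same IGEL tumours. EdgeR called 0 of 19253 genes between IGEL and GEM (0%) and 0 between LIGEL and IGEL (0%), with 305 (1.58%) and 242 (1.26%) at an unadjusted p under 0.05. PBS replicate 5 is in neither group of these contrasts and enters them through the filter, the scaling and the shared estimate of spread. Without it the calls stayed at 0 and those counts were 475 (2.43%) and 379 (1.94%). Ctla4 had a log2 fold change of 1.51 between IGEL and GEM and Kif20a one of -0.27, each with an edgeR adjusted p of 1.0. All 42 mitotic genes were below 0 between IGEL and GEM, with a median log2 fold change of -0.24 and 0 at an unadjusted p under 0.05.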

How the data were processed

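RNA extracted with Trizol from 24 tumour samples was sequenced on an Illumina instrument, per the labels' protocols. The authors deposited raw read counts per gene. HISAT2, featureCounts from Subread and the mm10 build are named in the submitters' processing notes. Versions, annotation release and strandedness are not given in the sources used here, so reads of a gene and an antisense partner may not be told apart. Of 54532 gene identifiers, 54495 were found in GENCODE mouse release 21.

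Genes were filtered with filterByExpr (minimum count 10, minimum total 15), which kept 19253 genes and removed 0.0666% of counts. The groups were fitted together over 24 libraries with TMM factors and the quasi-likelihood test of edgeR 4.0.16 in R 4.3.3, without covariates. P-values were adjusted by Benjamini-Hochberg over all tested genes, with a threshold of 0.05. CPM was computed with edgeR on the TMM-scaled total of tested genes, and log2 CPM used a prior count of 2. The fit was repeated without PBS replicate 5. Alternatives were limma 3.58.1 (voom with quality weights), DESeq2 1.42.0, other scalings, no filter, fewer libraries, a replicate block and the acinar score as a covariate. The code was tested on simulated data.

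The 54 gene lists hold 867 genes, of which 802 were tested. The comparison and the lists were chosen with earlier results of these data known. Genes named are those with the smallest p among log2 fold changes of at least 0.6 in size, those that fell without PBS replicate 5, the leading members of each list and a fixed set. The ranking by smallest p left out predicted genes, pseudogenes, V, D and J segments and genes with a low mean CPM. Not every gene that this rule takes is printed, and some are not reported here. Promoters come from RefSeq tables on GRCm38.p6. Wilson intervals cover counting error only.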

Additional observations from a re-analysis of the deposited data

Results flagged for a closer look

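Of 298 groups of 6 tumours checked, 55 held a tumour set apart from the other 5 by Dixon's criterion, which chance meets in about 1 in 20 groups. PBS replicate 5 was that tumour in 41 of them. Some of the genes checked were named from the fit without PBS replicate 5. That choice favours genes in which it stands apart, so the 41 cannot be read against the chance rate. No explanation was weighed.

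PBS replicate 5 was low in mean log2 CPM for 10 lists. These were mitotic genes at 3.487, DNA replication at 3.266, DNA repair at 3.014, gemcitabine genes at 4.095, checkpoint ligands at 3.007 and inflammatory cytokines at 1.769. The others were matrix crosslinking at 4.668, TGF-beta signalling at 4.847, mesenchymal transition at 4.732 and immediate early genes at 3.861.

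Among cell division genes PBS replicate 5 was low for Kif20a (10.54 CPM), Kif18b (8.781), Spag5 (17.83), Cenpa (23.57), Bub1 (10.6) and Ccnb2 (8.106). It was low for Mki67 (51.67 CPM), Top2a (67.48), Racgap1 (24.59), Prr11 (6.417), Knstrn (15.94), Hmmr (8.849) and Cks2 (4.796). The same held for Rangap1 (52.01 CPM), Jpt1 (40.6), Uevld (20.74), Mdc1 (39.38), Aaas (15.27) and Lmnb2 (16.14).

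Replication and repair genes low in PBS replicate 5 were Mcm10 (4.661 CPM), Chek2 (3.85), Parpbp (4.526) and Rrm1 (22.02). Further genes low there were Bax (26.61 CPM), Cdkn1a (35.94), Tigit (0.6079), Dysf (32.56), P4ha1 (35.6), Mmp13 (0.2702) and Lnpep (167.2). Ahcy was high in PBS replicate 5 at 567.5 CPM, and in IGEL replicate 4 at 232.3 CPM.

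PBS replicate 1 was high for the p53 targets (mean log2 CPM 5.82) and Cd8a (36.35 CPM) and low for Perm1 (6.833 CPM). PBS replicate 6 was high for red blood cell genes (mean log2 CPM 2.702) and low for Pdcd1 (0.3327 CPM), Cldn5 (1.941 CPM) and Ttn (3.161 CPM). IGEL replicate 4 was high for skeletal muscle genes (mean log2 CPM 4.577) and Ttn (139.2 CPM). IGEL replicate 1 was low for collagen chains (mean log2 CPM 7.099). IGEL replicate 6 was low for respiratory chain subunits (mean log2 CPM 5.792), red blood cell genes (mean log2 CPM -1.387) and Cox5a (17.32 CPM).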

How the results depend on the processing

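Calls between IGEL and PBS depended on the test and on PBS replicate 5. EdgeR called 0 genes with RLE scaling, with library totals, with no filter, with the 12 libraries alone, with the acinar covariate and without 6 libraries whose count columns are named A1 to A3. DESeq2 called 35 higher and 50 lower, and voom 78 and 306. Leaving out 1 library at a time gave 0 to 0 higher and 0 to 18 lower. Without PBS replicate 5, edgeR called 0 and 18, DESeq2 73 and 262, voom 85 and 454, and edgeR with the acinar covariate 7 and 84. Leaving out PBS replicates 1 and 5 gave 84 and 608. With the 11 other libraries alone, and without PBS replicate 5 and the A1 to A3 libraries, 0 genes were lower. The cause of these differences was not tested.

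No pairing of the samples by replicate number was seen, and the labels state none. Differences in tissue content between tumours enter the correlations used, so they cannot exclude a smaller factor shared by samples of one number. The correlation of deviations between same-numbered PBS and IGEL samples ran from -0.593 to 0.415, and 0 samples correlated best with their own number. With a replicate block edgeR called 0 higher and 0 lower, and without PBS replicate 5 it called 5 and 165.

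Of 2660 log2 fold changes of 95 genes under alternatives, 11 in 4 genes had the other sign. Prf1 was -0.19 with the acinar covariate and -0.28 when PBS replicate 5 was also left out. The Cpa1 log2 fold change was 0.29 without PBS replicate 5 in edgeR, in DESeq2 and with the 11 other libraries, 0.57 when the A1 to A3 libraries were left out too, and 1.38 without PBS replicates 1 and 5, and ran from -3.325 to 0.29 with 1 library left out at a time. The Col1a1 log2 fold change was 0.13 without PBS replicate 1 and ran from -0.57 to 0.13. Agtr1a was 0.10 under voom, 0.11 under voom without PBS replicate 5 and 0.22 without PBS replicates 1 and 5. Of 1512 list medians, 101 in 23 lists had the other sign.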

Other observations

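Ctla4 and Prf1 were chosen here after their values were seen, because they ran against the T cell list across the IGEL tumours. IGEL replicates 1 and 6 had the lowest T cell scores of their group, yet the highest Ctla4, 4.807 and 3.943 CPM against 1.256 to 2.456 CPM in the other 4. Prf1 was 37.57 and 41.35 CPM in the same tumours and 2.541 to 13.7 CPM in the other 4. MHC class II genes were low in both, with a mean log2 CPM of 2.907 and 3.475 against 4.701 to 6.211.

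Xist, transcribed from the inactive X chromosome, was also chosen after its values were seen. IGEL replicate 3 held 3 reads of Xist (0.0856 CPM), against 111.1 to 639.4 CPM in the other IGEL tumours and 195.4 to 2676 CPM in PBS. The Y-linked genes Ddx3y and Uty had 0 reads in 11 of the 12 tumours, and 6 and 4 reads in IGEL replicate 4. IGEL replicate 4 also held 1062 reads of Acta1, the actin of skeletal muscle, against 0 to 10 in the other 11.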
